A study of Homo sapiens with 6 samples.

Results

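Epithelial-mesenchymal transition (EMT) is the programme by which epithelial cells loosen their junctions and take on traits of mesenchymal cells. The 10 genes described here are 5 transcription factors that drive it (SNAI1, SNAI2, ZEB1, ZEB2 and TWIST1), 2 epithelial surface markers (CDH1 and EPCAM), and 3 genes commonly read as mesenchymal (CDH2, VIM and TGFBI). They were chosen by symbol, and all 10 were among the 52408 genes of the count table. RNA was sequenced from HepG2 cells, an established human liver cancer line that keeps many hepatocyte traits. The treated cells had spent 24 h in medium holding ellagic acid (EA, 50 µM, from a stock in DMSO), a polyphenol of many fruits, and the comparison cells had the same volume of DMSO alone. Each group had 3 libraries of this single line, not stated to be separate cultures, so p-values measure a spread that may be technical. The comparison asks which EMT genes differed in RNA level after EA.

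EMT factors of the Snail, ZEB and Twist families are DNA-binding repressors and activators that share targets. Snail and ZEB factors bind E-box motifs in the promoter of CDH1, which encodes the junction protein E-cadherin, and repress it in many epithelial cells. Loss of E-cadherin with gain of N-cadherin, encoded by CDH2, is known as the cadherin switch. Hepatocytes are unusual among epithelial cells in carrying both cadherins. TGF-beta is a classical inducer of the programme, and TGFBI is a secreted matrix protein named for its induction by it.

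The repressors and the surface markers moved in opposite directions. ZEB1 and SNAI1 were 4.71-fold and 5.35-fold higher with EA than with DMSO. SNAI2 and ZEB2 had more reads with EA too, but they were scarce and entered the test through their EA libraries alone. CDH1 and EPCAM were lower with EA, by 3.38-fold and 3.11-fold. CDH2 and TGFBI, which are usually read as mesenchymal, were also lower, by 5.24-fold and 6.75-fold. VIM and TWIST1 had at most 1 read in any library and were not tested.

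The RefSeq promoter table (GRCh38.p14) was read for the motif that Snail and ZEB factors bind, CACCTG or its reverse complement CAGGTG, in windows of 300 bases from 250 before to 50 after an annotated start. Of the 10 genes, 5 had a window: CDH2, VIM, ZEB1, ZEB2 and TGFBI. ZEB1, the repressor with the most reads, held the motif in 2 of its 7 windows (28.6%), against 20.6% of all 35116 windows. The other 4 genes, with 5 windows, held none. A match describes letters in a window and does not show a site in use, and the counts do not say which start was used. Both ZEB1 windows with the motif (capitals) are shown beside the first-listed of 2 windows of CDH2 and the single window of TGFBI, the genes that fell most, for comparison.
ZEB1, plus strand, chr10:31318167-31318466: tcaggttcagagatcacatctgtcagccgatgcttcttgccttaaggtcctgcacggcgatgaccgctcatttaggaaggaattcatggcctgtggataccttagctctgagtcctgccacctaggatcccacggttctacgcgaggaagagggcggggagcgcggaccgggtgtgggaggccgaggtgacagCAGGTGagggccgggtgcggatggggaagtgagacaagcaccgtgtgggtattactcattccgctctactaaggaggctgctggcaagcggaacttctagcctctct
ZEB1, plus strand, chr10:31318966-31319265: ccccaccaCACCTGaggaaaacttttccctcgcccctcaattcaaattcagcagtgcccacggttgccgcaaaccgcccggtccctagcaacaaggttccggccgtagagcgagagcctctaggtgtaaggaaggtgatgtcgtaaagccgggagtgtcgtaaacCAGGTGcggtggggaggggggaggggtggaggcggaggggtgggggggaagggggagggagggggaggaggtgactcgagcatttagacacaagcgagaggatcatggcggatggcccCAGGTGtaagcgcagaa
CDH2, minus strand, chr18:28177081-28177380: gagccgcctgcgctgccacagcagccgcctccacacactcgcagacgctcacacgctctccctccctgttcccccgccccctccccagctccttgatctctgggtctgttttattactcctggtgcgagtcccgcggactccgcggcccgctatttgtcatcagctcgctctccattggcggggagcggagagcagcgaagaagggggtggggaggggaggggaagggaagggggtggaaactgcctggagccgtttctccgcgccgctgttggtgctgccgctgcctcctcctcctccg
TGFBI, plus strand, chr5:136028738-136029037: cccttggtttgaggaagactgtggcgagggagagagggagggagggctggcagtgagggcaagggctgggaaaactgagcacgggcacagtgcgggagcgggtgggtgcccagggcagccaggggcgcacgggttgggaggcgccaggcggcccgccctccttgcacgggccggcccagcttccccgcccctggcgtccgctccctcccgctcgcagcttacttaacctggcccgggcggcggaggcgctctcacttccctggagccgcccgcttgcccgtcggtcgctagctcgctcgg
In the upper ZEB1 window the motif began 57 bases before the start. In the lower one it began 242 and 85 bases before the start and 33 bases after it.

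The libraries held 15738089 to 19202292 reads assigned to genes with EA and 22987425 to 25973621 with DMSO. In the test over 15648 genes 81.0% were called at an adjusted p of 0.05 (edgeR quasi-likelihood, Benjamini-Hochberg), 40.5% higher and 40.5% lower with EA, so a call by itself sets no gene apart. EA replicate 3 stood away from the other EA libraries: the chi-square per degree of freedom across genes was 13.4 and 15.5 in its pairs, against 3.56 to 4.59 in the other within-group pairs. The hepatoma markers AFP and GPC3 summed to 2322 to 2515 CPM (reads scaled to normalised library size) with EA and 6385 to 7030 CPM with DMSO, and 8 hepatocyte markers, 7 of them called lower and 1 higher, to 12130 to 12750 CPM with EA and 46960 to 49340 CPM with DMSO. Of 8 fibroblast and stroma markers, 2 (COL1A2 and DCN) had no read in any library, 2 were tested and both called lower (COL1A1 entered the test through its DMSO libraries alone), and the list summed to 5.08 to 7.12 CPM with EA and 16.6 to 17.8 CPM with DMSO. Of 5 leukocyte markers, PTPRC, CD3E and CD68 were at 0, while LYZ brought the sum to 288.8 to 353.2 CPM with EA and 1757 to 1838 CPM with DMSO. The other, CD14, had 12 reads over the EA libraries and 124 over the DMSO libraries. It was called lower but entered the test through its DMSO libraries alone, so that call carries no support. For endothelium the sum was 3.81 to 5.09 CPM with EA and 2.91 to 3.07 CPM with DMSO over 6 markers, with EMCN at 0. Of these 6, 3 were tested, with 1 called higher, CDH5 called lower and CLDN5 not called. CDH5 and CLDN5 entered the test through their DMSO libraries alone, so the CDH5 call carries no support. The part of these markers in the results was not tested. In bulk RNA, fewer cells with a transcript and less of it per cell cannot be told apart.

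All 8 tested EMT genes passed the threshold, 4 higher and 4 lower, against 81.0% of all tested genes (40.5% in each direction). Of the 4 higher, SNAI2 and ZEB2 had so few reads with DMSO that they entered the test through their EA libraries alone. Such entry favours genes that differ, so these 2 calls carry no support. The other 6 were 2 higher and 4 lower. Each of the 8 was called with a change of at least 2-fold, as were 44.9% of all tested genes. They also passed when tested against a fold of 1.5, as did 54.5% of tested genes. In each the EA and DMSO libraries did not overlap, as in 83.0% of tested genes. Without EA replicate 3 all 8 remained called, with log2 fold changes of 2.24 for ZEB1, -1.80 for CDH1, -1.70 for EPCAM and -2.40 for CDH2, and those of the other 4 given below.

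**Figure D1:**
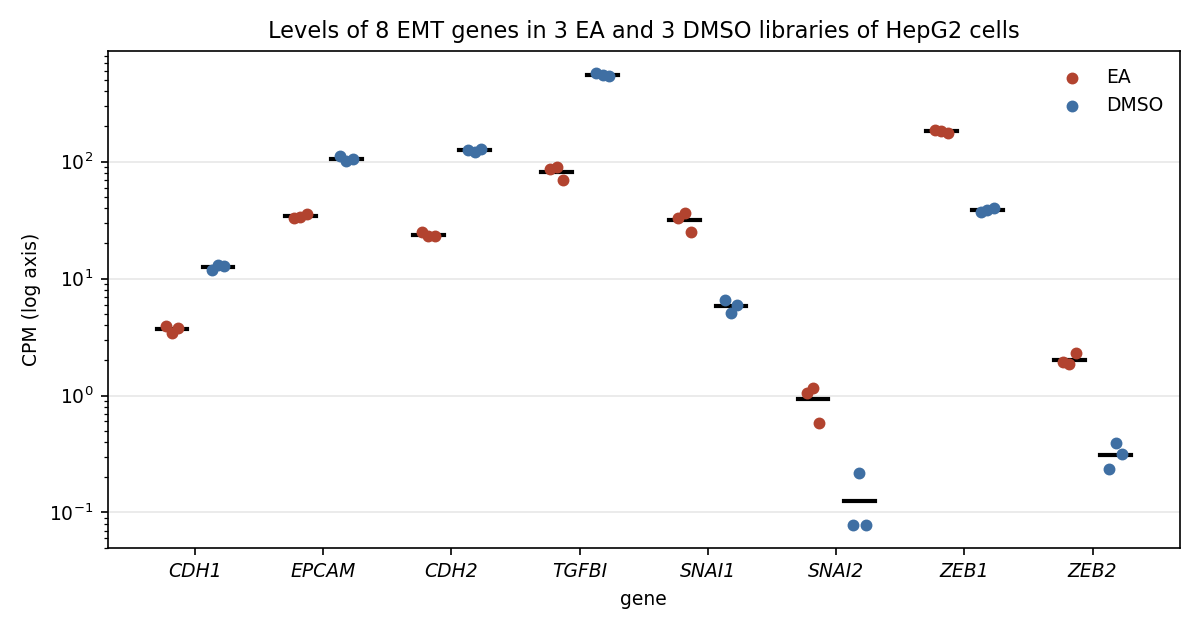
CPM (scaled by TMM, log axis) of the 8 tested EMT genes in each library, EA in red and DMSO in blue; bars are means of 3 libraries. CDH1, EPCAM, CDH2 and TGFBI are lower in all EA libraries and SNAI1, SNAI2, ZEB1 and ZEB2 higher; VIM and TWIST1, with 0 or 1 read per library, are not drawn.

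Among the repressors, ZEB1 (ENSG00000148516) encodes a zinc finger homeobox factor that silences epithelial genes. It had 185, 185 and 174 CPM in the EA libraries, against 36.9, 38.4 and 40.2 CPM in the DMSO libraries. Each EA library lay far above the highest DMSO library, and the EA libraries differed little among themselves. The mean was 181 ± 6.10 CPM with EA and 38.5 ± 1.66 CPM with DMSO (SD, n = 3 each), a log2 fold change of 2.24 (SE 0.07; edgeR quasi-likelihood, Benjamini-Hochberg adjusted p = 2.45e-13). ZEB1 had the most reads of the repressors in both groups, and 9.80% of tested genes rose by more.

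SNAI1 (ENSG00000124216) encodes Snail, a short-lived zinc finger repressor of CDH1. It had 32.9, 36.3 and 25.3 CPM with EA, against 6.57, 5.08 and 5.93 CPM with DMSO. EA replicate 3 was the lowest of the EA libraries and still stood well above every DMSO library. Its log2 fold change was 2.42 (SE 0.14; edgeR quasi-likelihood, Benjamini-Hochberg adjusted p = 1.76e-09), or 2.53 without EA replicate 3.

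SNAI2 and ZEB2, the paralogs of these factors, were scarce. SNAI2 (ENSG00000019549), which encodes Slug, had 17, 22 and 11 reads in the EA libraries, against 2, 5 and 2 reads in the DMSO libraries. ZEB2 (ENSG00000169554) had 31, 35 and 44 reads with EA, against 6, 9 and 8 reads with DMSO. Groups did not overlap for either gene, and EA replicate 3 was lowest for SNAI2 but highest for ZEB2. The log2 fold change was 2.88 for SNAI2 (SE 0.49) and 2.69 for ZEB2 (SE 0.31), and no p is given, since both entered the test through the group where they are high. These are the widest errors among the 8 genes, and without EA replicate 3 the changes were 3.11 and 2.56. In means, SNAI2 reached 0.933 ± 0.310 CPM with EA and 0.124 ± 0.0803 CPM with DMSO, and ZEB2 2.03 ± 0.253 CPM with EA and 0.313 ± 0.0789 CPM with DMSO (SD, n = 3 each).

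TWIST1 (ENSG00000122691), a basic helix-loop-helix factor of mesoderm, had 0 reads in all 6 libraries. A count of 0 allows up to 3 reads over a group, or 0.0556 CPM with EA and 0.0404 CPM with DMSO, for counting error only. TWIST1 RNA was therefore not detectable at this depth.

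**Figure D2:**
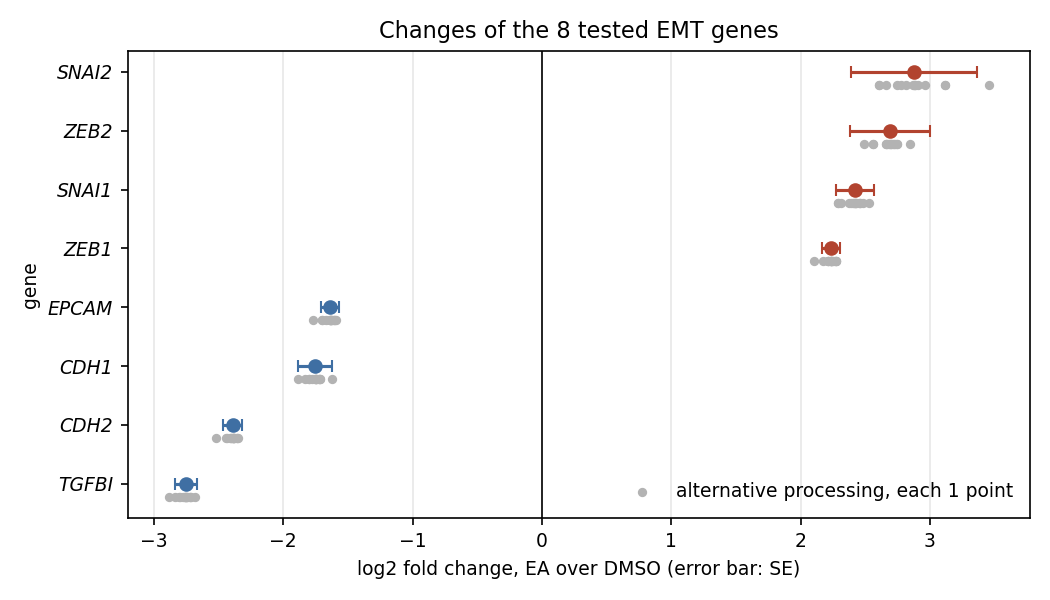
Log2 fold change of EA over DMSO for the 8 tested EMT genes, with its SE (red higher, blue lower with EA); grey points are the alternative ways of processing. SNAI2, ZEB2, SNAI1 and ZEB1 lie between 2.24 and 2.88, and EPCAM, CDH1, CDH2 and TGFBI between -1.64 and -2.75.

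Among the epithelial markers, CDH1 (ENSG00000039068) had 3.91, 3.44 and 3.80 CPM with EA, against 11.7, 13.1 and 12.8 CPM with DMSO. It rested on 63, 65 and 72 reads in the EA libraries and 302, 302 and 327 reads in the DMSO libraries. Every EA library lay below every DMSO library. Its log2 fold change was -1.76 (SE 0.13; edgeR quasi-likelihood, Benjamini-Hochberg adjusted p = 6.13e-09).

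EPCAM (ENSG00000119888) encodes an adhesion molecule of simple epithelia and of hepatic progenitors. It had 32.9, 33.5 and 35.7 CPM with EA, against 111, 101 and 106 CPM with DMSO. The EA libraries were close together and all below the DMSO libraries. The mean was 34.0 ± 1.48 CPM with EA and 106 ± 5.42 CPM with DMSO (SD, n = 3 each), with a log2 fold change of -1.64 (SE 0.07).

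Of the genes read as mesenchymal, CDH2 (ENSG00000170558) had 24.9, 23.3 and 23.3 CPM with EA, against 126, 120 and 129 CPM with DMSO. The EA libraries were tightly grouped and far below the DMSO libraries. The log2 fold change was -2.39 (SE 0.07; edgeR quasi-likelihood, Benjamini-Hochberg adjusted p = 2.39e-13).

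TGFBI (ENSG00000120708) had the most reads of the 10 genes with DMSO. It had 85.8, 89.5 and 70.4 CPM with EA, against 569, 552 and 536 CPM with DMSO. EA replicate 3 was the lowest of all libraries. The log2 fold change was -2.75 (SE 0.09; edgeR quasi-likelihood, Benjamini-Hochberg adjusted p = 4.47e-13), or -2.68 without EA replicate 3, and 3.21% of tested genes fell by more.

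VIM (ENSG00000026025), which encodes the intermediate filament vimentin, had 1 read in each EA library and 0 in each DMSO library. That is at the limit of 3 reads in the EA group, so no fold is given and no difference was detectable in these counts. The antisense gene VIM-AS1 overlaps 12.4% of the VIM exon bases (GENCODE 29) and had 38, 62 and 64 reads with EA, against 1, 0 and 2 reads with DMSO. The ratio for VIM-AS1 was 75.1, from 3 reads over the DMSO libraries, and no interval is given. VIM-AS1 entered the test through its EA libraries alone and was named after its values were seen, so the ratio carries no support. Since no source used here names the strand setting of the counting, VIM and VIM-AS1 reads over their shared bases cannot be told apart.

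ZEB1-AS1, which overlaps 4.23% of the ZEB1 exon bases, had 137, 139 and 175 reads with EA, against 82, 86 and 72 reads with DMSO, and was higher with a log2 fold change of 1.37 (edgeR quasi-likelihood, Benjamini-Hochberg adjusted p = 1.11e-06). Its reads were few beside the 9771 over the EA libraries and 2856 over the DMSO libraries counted for ZEB1. ZEB2-AS1 had 0 reads in every library. The antisense genes that overlap CDH1, CDH2 and TWIST1 had 0 to 4 reads in any library, and no gene overlaps the exons of EPCAM, SNAI1, SNAI2 or TGFBI in GENCODE 29.

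Levels of different genes are compared per kilobase of exon. With EA the order was ZEB1 at 21.0 ± 0.705 CPM per kilobase, SNAI1 at 18.7 ± 3.34, EPCAM at 13.5 ± 0.587, TGFBI at 10.5 ± 1.30, CDH2 at 4.82 ± 0.188, CDH1 at 0.602 ± 0.0402, SNAI2 at 0.275 ± 0.0915 and ZEB2 at 0.0811 ± 0.0101 (SD, n = 3). With DMSO it was TGFBI at 70.8 ± 2.10 CPM per kilobase, EPCAM at 42.1 ± 2.15, CDH2 at 25.3 ± 0.934, ZEB1 at 4.45 ± 0.192, SNAI1 at 3.48 ± 0.443, CDH1 at 2.04 ± 0.118, SNAI2 at 0.0367 ± 0.0237 and ZEB2 at 0.0125 ± 0.00315. With EA the repressors ZEB1 and SNAI1 thus headed the order, above the markers that headed it with DMSO. ZEB1 and SNAI1 overlapped between libraries with EA, and no other neighbours in either order did. Lengths are of all annotated exons in GENCODE 29, which for ZEB2 span 25058 bases, so its level per length is a low estimate if cells use a shorter transcript.

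Ratios within a library do not depend on how libraries are scaled. CDH2 per length stood to CDH1 at 7.94, 8.45 and 7.66 in the EA libraries, against 13.4, 11.4 and 12.5 in the DMSO libraries. The groups did not overlap, and CDH2 remained the more abundant cadherin throughout, so the balance shifted toward CDH1 while both fell. ZEB1 stood to CDH1 at 33.8, 38.3 and 32.8 with EA, against 2.24, 2.09 and 2.24 with DMSO, means of 34.9 with EA and 2.19 with DMSO. SNAI1 to CDH1 was 31.3 ± 7.16 with EA and 1.72 ± 0.316 with DMSO (SD, n = 3 each). By contrast CDH1 to EPCAM was 0.0446 ± 0.00350 with EA and 0.0485 ± 0.00516 with DMSO, and ZEB1 to SNAI1 was 1.10, 0.992 and 1.34 with EA, against 1.09, 1.47 and 1.32 with DMSO. The groups overlapped for these last pairs, so CDH1 and EPCAM, and ZEB1 and SNAI1, differed in their change by less than the spread between libraries. No p is given for ratios between genes that were chosen with results known.

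**Figure D3:**
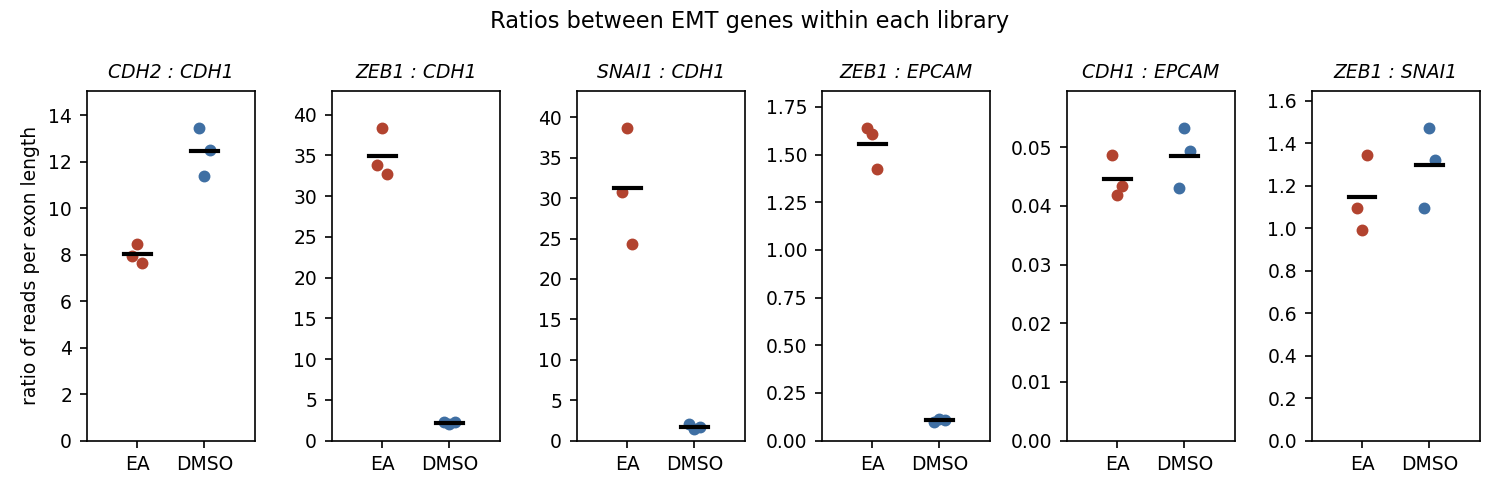
Ratio of reads per exon length between named pairs of genes within each library (EA left, DMSO right; bars are means of 3 libraries; each panel has its own axis from 0). ZEB1 : CDH1, SNAI1 : CDH1 and ZEB1 : EPCAM are high with EA, CDH2 : CDH1 is 8.02 with EA against 12.4 with DMSO on average, and CDH1 : EPCAM and ZEB1 : SNAI1 overlap between the groups.

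To set these genes in their pathway, 9 lists of related genes were read from the same test. They hold 142 distinct genes, of which 38 were below the filter on low counts. Of the 104 tested, 56 were higher with EA, 34 lower and 14 not called, a called share of 86.5% beside 81.0% of all tested genes. Of them 5 entered the test through 1 group alone (CTBP2 and GRHL3 through EA, CDH5, COL1A1 and COL5A2 through DMSO) and were called in that direction, so their calls carry no support. The median log2 fold change of all tested genes was 0.00, and medians of lists below are to be read beside it.

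TGF-beta signalling genes were mostly higher with EA. Of 18 tested ligands, receptors, latency proteins, SMADs and SMAD regulators, 13 rose, 2 fell and 3 were not called (median log2 fold change 1.16). Of all tested genes, 40.5% were called higher and 40.5% lower. The list holds genes that limit the signal as well as genes that carry it, so its count carries no direction for signalling. The ligand gene TGFB1 had 493, 472 and 442 CPM with EA, against 99.5, 104 and 99.6 CPM with DMSO, a log2 fold change of 2.21 (SE 0.07). All EA libraries lay above all DMSO libraries, the opposite of TGFBI, the gene named for induction by this ligand. SMURF1 and SMURF2, ubiquitin ligases that limit SMAD signalling, rose by log2 fold changes of 1.97 and 1.80. Against the direction of most, TGFBR3, the co-receptor betaglycan, fell to 98.5 ± 16.4 CPM with EA, against 676 ± 31.6 CPM with DMSO (SD, n = 3 each), a log2 fold change of -2.78.

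Of 16 other EMT transcription factors 10 were tested, and 5 rose and 5 fell (median 0.39). ETS1, a factor of invasive and endothelial cells, reached 227 ± 1.68 CPM with EA and 7.72 ± 0.839 CPM with DMSO (SD, n = 3 each), a log2 fold change of 4.88 (SE 0.09). SOX4 rose by 1.89, while ID3, an inhibitor of basic helix-loop-helix factors, fell by 1.78 on the log2 scale. The other 6 were below the filter.

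Corepressors that Snail and ZEB factors recruit were mixed. Of 13, 5 rose, 6 fell and 2 passed in neither direction (median -0.18), with 3 called higher without DMSO replicate 1. Without CTBP2, which entered the test through its EA libraries alone, 4 rose and the median was -0.265. CTBP2, a partner of ZEB factors, had 289, 335 and 289 reads with EA, against 12, 18 and 12 reads with DMSO. Its log2 fold change was 4.89 (SE 0.19), but it entered the test through its EA libraries, with 1 DMSO library at the filter's level, and the gene has processed pseudogene copies, and no source used here says whether reads shared with them were counted, so its level is uncertain. RCOR1 rose by 1.28, and the deacetylase HDAC2, which Snail recruits, fell by 1.52 on the log2 scale.

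Genes that control the stability of Snail protein were mostly higher: of 14, 11 rose, 2 fell and CTDSP1 (-0.36, SE 0.16) was not called (median 0.51), with 1 called lower without EA replicate 1 or without DMSO replicate 2. They act both ways, so their count carries no direction for the protein, which was not measured. The kinase gene CSNK1E rose by a log2 fold change of 2.10, LOXL2, a lysyl oxidase family member that stabilises Snail, by 3.99, and the Hippo kinase LATS2 by 1.72. BTRC, a ubiquitin ligase subunit that marks Snail for breakdown, fell, with a log2 fold change of -0.34 (SE 0.09).

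The epithelial side was mixed as well. Of 11 factors that maintain the epithelial state 5 were tested, 3 higher and 2 lower (median 1.65, or 0.60 without GRHL3, which entered the test through its EA libraries alone). KLF4 had 90.9, 82.3 and 94.3 CPM with EA, against 1.83, 2.30 and 2.59 CPM with DMSO, a log2 fold change of 5.31 (SE 0.12). ELF3, an epithelial ETS factor, rose by 1.65. ESRP2, an epithelial splicing regulator, fell to 16.3 ± 1.70 CPM with EA, against 44.6 ± 1.53 CPM with DMSO (SD, n = 3 each). GRHL2 had no read in any library, and MIR200CHG, the host gene of ZEB-targeting microRNAs, had 2 reads over the EA libraries and 0 over the DMSO libraries.

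Junction genes, a wider set than the partners of E-cadherin, did not fall with CDH1 as a group. Of 15 tested genes of adherens junctions and desmosomes, 7 rose, 4 fell and 4 were not called (median 0.11), and 7 were called lower without EA replicate 3. AFDN (afadin) and JUP (plakoglobin) rose by log2 fold changes of 1.33 and 1.10, NECTIN1 reached 103 ± 3.28 CPM with EA and 36.5 ± 2.40 CPM with DMSO (SD, n = 3 each), and PKP4 fell by 0.84 on the log2 scale. Most other cadherins had few reads, and 14 of 19 were below the filter. Of the 5 tested, CDH24 and CDH4 rose by 0.84 and 0.65 and stood at 9.28 and 10.7 CPM with EA, against 5.18 and 6.82 CPM with DMSO (means, n = 3 each). CDH15 fell. The endothelial CDH5, with 18 reads over the EA libraries and 96 over the DMSO libraries, entered the test through its DMSO libraries alone and was called lower, and CDH16 was not called (-0.54, SE 0.31).

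Beside vimentin, 9 of 14 other intermediate filament genes and their associates were tested, with 3 higher, 5 lower and 1 not called (median -0.81). NES, the progenitor filament nestin, fell by 2.12 on the log2 scale, and the nuclear lamina gene LMNB1 fell by 3.35. KRT19, a keratin of bile duct cells, went the other way, at 1279 ± 108 CPM with EA and 399 ± 30.4 CPM with DMSO (SD, n = 3 each). The keratins KRT8 and KRT18 were called lower, with log2 fold changes of -0.81 and -1.11.

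Other mesenchymal markers were divided. Of 15 tested, 7 rose, 6 fell and 2 were not called (median 0.14, or 0.81 without COL1A1 and COL5A2). The fibronectin receptor subunit ITGA5 reached 382 ± 32.2 CPM with EA and 0.987 ± 0.113 CPM with DMSO (SD, n = 3 each), a log2 fold change of 8.59. SPARC, a matrix protein, fell to 21.7 ± 1.28 CPM with EA, against 125 ± 3.96 CPM with DMSO (SD, n = 3 each), a log2 fold change of -2.52. Genes of these lists that are named here as called had adjusted p from 1.42e-16 to 0.0020 (edgeR quasi-likelihood, Benjamini-Hochberg).

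**Figure D4:**
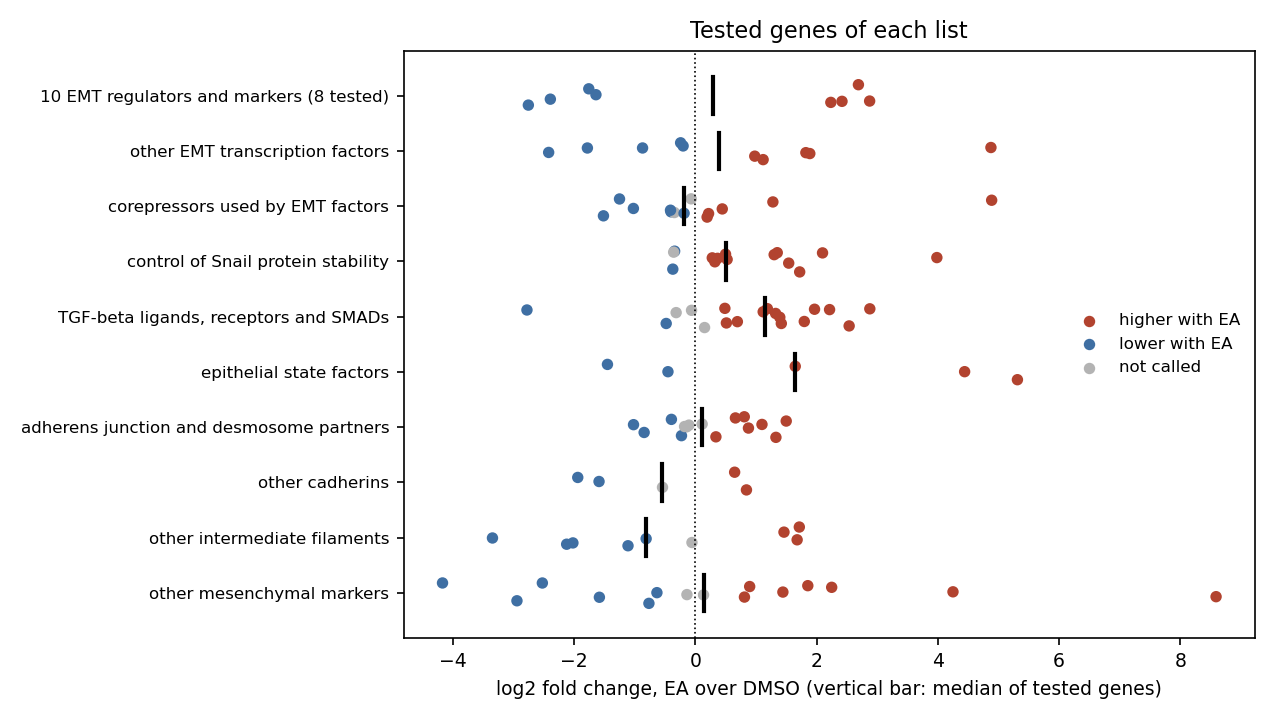
Log2 fold change of EA over DMSO for each tested gene of the 10 EMT genes and of the 9 related lists (red higher, blue lower, grey not called; black bars are medians). The 8 tested EMT genes separate into a low and a high set with none between -1.64 and 2.24, and the 18 TGF-beta signalling genes have a median of 1.16.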

How the data were processed

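RNA was measured in 6 HepG2 libraries, 3 with EA and 3 with DMSO. Per the labels' protocols, TRIzol RNA of integrity above 7 went into NEBNext Ultra libraries for paired-end HiSeq sequencing. The submitters' processing notes name HTSeq 0.6.1, HISAT, cutadapt 1.9.1, bcl2fastq 2.17.1.14 and the hg19 build. No source used here gives the annotation release, strand setting or filters. The authors deposited raw read counts per gene, not normalised.

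Genes were filtered with filterByExpr (a level of 0.474 CPM; a gene entered through 1 group alone where all its libraries, and not all of the other group's, reached it), scaled by TMM and tested with edgeR 4.0.16 (R 4.3.3, quasi-likelihood F test, robust, adjusted p under 0.05 over 15648 genes). The method was run on simulated data in which most genes did not change, unlike here, so that run does not vouch for these calls. CPM use TMM-scaled library sizes, and the SE is the size of the log2 fold change over the square root of F. A count of 0 in 1 library allows 0.158 to 0.186 CPM with EA and 0.117 to 0.130 CPM with DMSO (3 reads). These limits cover only counting error: PCR reads with no molecular identifier are not independent. Replicate numbers do not pair the libraries: deviations of same-numbered libraries correlated at -0.08, 0.03 and -0.01.

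The 10 genes and the 9 lists were chosen with earlier results of these data known. In each list up to 3 called genes with the smallest p, a mean CPM of at least 1 and groups apart were named, plus the first such gene against the list's main direction. A gene that this rule named is not reported here. GRHL2, MIR200CHG, CDH5, CDH16, CTDSP1, GRHL3, COL1A1, COL5A2, the overlapping antisense genes and the genes of the closing section were named after their values were seen. So were KRT8, KRT18, CD14 and CLDN5. For 1 gene (CCN2) the row was found by its Ensembl identifier. Alternatives were RLE, upper-quartile and library-size scaling, DESeq2 1.42.0, limma-voom (limma 3.58.1), a minimum fold of 1.5, no filter, a stricter filter (1 CPM in 3 libraries), thinning to equal depth, a replicate block, and each library left out in turn. Exon lengths and overlaps were taken from GENCODE 29 (GRCh38) and promoters from RefSeq (GRCh38.p14), while the counts were made on hg19.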

Additional observations from a re-analysis of the deposited data

How the results depend on the processing

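The 16 alternatives left every tested EMT gene in its direction and past the threshold, except that the stricter filter removed SNAI2 from the test, leaving 3 higher. SNAI2 and ZEB2 entered the main test through their EA libraries alone, so their lasting calls carry no support. The range of log2 fold changes was 2.60 to 3.46 for SNAI2, 2.49 to 2.85 for ZEB2, 2.29 to 2.53 for SNAI1 and 2.10 to 2.28 for ZEB1, and -1.89 to -1.63 for CDH1, -1.77 to -1.59 for EPCAM, -2.52 to -2.35 for CDH2 and -2.89 to -2.68 for TGFBI. A minimum fold of 1.5 asks for more than a difference, and with it 4179 of all tested genes were called lower (6336 without it). In the lists it left 3 other EMT factors lower (5 without it), 2 corepressors higher (5) and 3 lower (6), 6 Snail stability genes higher (11) and 0 lower (2; 0 at an unadjusted p under 0.05 against that fold in edgeR, and DESeq2 called 1 against no minimum fold), 1 TGF-beta gene lower (2), 1 epithelial state factor lower (2), 2 junction genes lower (4) and 1 other cadherin higher (2). With it BTRC (adjusted p = 1.00) and CDH4 (0.203) were no longer called by edgeR. Without a filter 32015 genes were tested, with 3 corepressors higher, 7 junction genes lower, and 5 other cadherins and 5 filament genes higher; the cause of the first 2 was not tested. Leaving out 1 library at a time gave 3 to 5 corepressors higher (3 without DMSO replicate 1), 1 to 3 Snail stability genes lower (1 without EA replicate 1 or DMSO replicate 2) and 4 to 7 junction genes lower (7 without EA replicate 3). Over all genes it gave 6104 to 6794 higher and 6167 to 6819 lower. A replicate block, for numbers that do not pair the libraries, called 6246 genes higher and 6291 lower and kept 4 EMT genes on each side. Depth limits SNAI2 and ZEB2. VIM and TWIST1 are undecided: their counts also depend on the annotation and strand setting of the counting, which the sources used here do not give.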

Other observations

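Several mesenchymal or lineage genes below the filter had more reads with EA, picked out after their values were seen and not tested. TCF4, a helix-loop-helix EMT factor, had 25 reads over the EA libraries and 1 over the DMSO libraries. CDH7, a neural cadherin, had 15 reads with EA and 0 with DMSO, PRRX1, a mesenchymal homeobox factor, 8 with EA and 0 with DMSO, and DES, the muscle filament desmin, 8 with EA and 0 with DMSO. The reverse held for KRT20, an intestinal keratin, with 0 reads with EA and 43 with DMSO, and for PRPH, a filament gene, with 4 and 13. Of the other genes below the filter, some had more reads with EA and some did not. COL5A1 had 20 reads with EA and 9 with DMSO, and KRT7 had 16 with EA and 2 with DMSO. FOXC2 had 2 with EA and 6 with DMSO, TWIST2 had 4 with EA and 5 with DMSO, and TGFB2 had 5 in each group. Since the genes named here were picked by their values, they give no direction for their lists. The mesenchymal genes COL1A2 and POSTN had no read in either group.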
